A study of Mus musculus with 8 samples.

Results

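Enteric glia and neural crest genes were followed in the ileum of LGR5-null mouse embryos (LGR5-/-), set against the ileum of wild-type embryos (LGR5 +/+), all taken at E18.5, late in gestation. The group comprises 6 genes, Sox10, S100b, Gfap, Ednrb, Erbb3 and Fabp7, and every probe carrying one of these symbols in the platform annotation was taken. That gave 6 probes of 4 genes among 36591 probes tested. S100b and Fabp7 had 1 probe each, and Ednrb and Gfap had 2 each. Sox10 and Erbb3 were not analysed here, because no annotated probe carried their symbol. The arrays were MEEBO glass arrays of 70-base mouse oligonucleotides. Each of 4 embryo pairs, 1 null and 1 wild-type embryo, was hybridised on 2 arrays with Cy5 and Cy3 exchanged, 8 arrays in all. Per the design text the 4 pairs came from 3 couples of heterozygous parents. Both alleles of Lgr5 are null in the null embryos, and no label says how the allele was built.

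The enteric nervous system forms from neural crest cells that enter the foregut and migrate along the bowel, where they give rise to neurons and glia. SOX10 is the transcription factor that keeps crest cells multipotent and is retained in enteric glia. EDNRB, the receptor for endothelin 3, is needed for the crest cells to colonise the distal bowel, and in humans and mice its loss leaves the distal colon without ganglia. ERBB3 is the neuregulin receptor of crest-derived glia. S100B, a calcium-binding protein, and GFAP, an intermediate filament protein, are the classical glial markers, and FABP7 is a fatty acid-binding protein of glial precursors and of glia.

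All values are log2 ratios of null over wild type, so that a value of -1 is a halving in null ileum. Neither the base of the logarithm nor the direction of the ratio is stated, so the base is assumed and the direction is called likely. The null sample is channel 1 on all 8 arrays, arrays of a pair correlated positively although their dyes were exchanged (r = 0.312 to 0.783 across probes), and the Lgr5 probe was below 0 on all 8 arrays. Only ratios were deposited, so the level of a gene in either genotype, and whether its probe was above background, cannot be given, and the tissue label could not be checked against marker levels. In bulk ileum, fewer glia and less RNA per glial cell cannot be told apart.

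Pair 1 stood apart from the other pairs. Its arrays agreed best with each other (r = 0.783, against 0.312 to 0.406 in the other pairs). The Y-linked gene Eif2s3y was at -4.56 there, against -0.035 to 0.90 in the others. Kdm5d and Uty, also Y-linked, were at -2.42 and -0.31 in pair 1. Whether the embryos of pair 1 differed in sex was not tested, and within 1 pair such a difference cannot be told apart from genotype. Immediate early and stress genes had a median of 0.68 in pair 1, against -0.015 to 0.22. Member means, most list counts of means below 0 and most means whose size came mostly from pair 1 are therefore given with and without it. Counts by sign in all 4 pairs or by unadjusted p are given with pair 1 alone. Lgr5, the targeted gene, was at -1.61, -0.92, -1.92 and -1.93 in pairs 1 to 4 and averaged -1.59 ± 0.47 (SD, n = 4).

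The promoters of the 2 members with the lowest mean ratios, S100b and Fabp7, are shown first because the results turn on these genes. Both genes lie on chromosome 10, as does Lgr5. The sequences run 5′ to 3′ from 250 bases before to 50 bases after the annotated start and come from RefSeq, build GRCm38.p6. Capitals mark the core letters that SOX proteins such as SOX10 bind.
S100b, chr10:76253586-76253885, plus strand: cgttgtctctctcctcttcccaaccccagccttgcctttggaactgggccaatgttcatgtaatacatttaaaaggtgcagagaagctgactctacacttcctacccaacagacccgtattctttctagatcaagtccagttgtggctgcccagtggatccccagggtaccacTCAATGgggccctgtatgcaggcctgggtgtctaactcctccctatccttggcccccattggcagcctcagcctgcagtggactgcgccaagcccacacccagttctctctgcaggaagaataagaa
Fabp7, chr10:57784673-57784972, plus strand: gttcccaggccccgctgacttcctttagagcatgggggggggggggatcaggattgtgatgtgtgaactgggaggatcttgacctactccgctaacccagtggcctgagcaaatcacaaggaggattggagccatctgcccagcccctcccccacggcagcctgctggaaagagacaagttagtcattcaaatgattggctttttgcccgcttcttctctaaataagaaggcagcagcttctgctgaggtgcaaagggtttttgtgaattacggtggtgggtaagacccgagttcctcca
Both strands were searched for the letters ACAAAG and, with another first base, TCAAAG. The search also took in ACAATG and, with another first base, TCAATG. The S100b window held 1 match, which begins 77 bases before the start, and the Fabp7 window held 0. The Gfap window held 2 matches and the Ednrb window 1, so 3 of the 4 measured members had at least 1. Among 32851 promoter windows of the same length, 44.0% held at least 1 match and 13.9% held 2 or more. A match of these letters is a description of the sequence, not a binding site.

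S100b had a ratio below 0 in all 4 pairs, of a size that differed between them. With the null sample in Cy5 and then in Cy3, its probe gave -0.46 and -0.60 in pair 1, -0.32 and -0.47 in pair 2, -0.039 and -0.36 in pair 3, and 0.043 and -0.17 in pair 4. The values lay below 0 on 7 of 8 arrays, lowest in pair 1 and nearest to 0 in pair 4. In every pair the array with the null sample in Cy3 was the lower one, and the dye term of the probe was 0.21 (limma adjusted p = 0.0794). The pair means were -0.53, -0.40, -0.20 and -0.065, which put S100b in the lowest 2.61%, 0.872%, 7.38% and 26.7% of all tested probes of pairs 1 to 4. Over the pairs the mean was -0.30 ± 0.20 (SD, n = 4), which corresponds to 0.814 of wild type. Adjusted over all probes it missed the threshold (limma unadjusted p = 0.0165, adjusted p = 0.864). Without pair 1 the mean was -0.22 ± 0.17 (SD, n = 3; limma adjusted p = 0.862).

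Fabp7 was far lower in null ileum in 1 pair and close to wild type in the others. Its probe gave -1.14 and -1.22 on the arrays of pair 1, -0.17 and -0.15 in pair 2, -0.12 and 0.063 in pair 3, and -0.11 and 0.017 in pair 4. The arrays of pair 1 differed from each other by 0.087, so the low value was seen with either dye. The pair mean of -1.18 in pair 1 corresponds to 0.442 of the wild-type level and lay in the lowest 0.254% of all tested probes. The pair means elsewhere were -0.16, -0.030 and -0.0445, also below 0 but small. The mean over pairs was -0.35 ± 0.55 (SD, n = 4; limma adjusted p = 0.867). Without pair 1 it was -0.08 ± 0.07 (SD, n = 3; limma adjusted p = 0.862), so the size of the mean came from pair 1.

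Ednrb, the endothelin receptor, was represented by 2 probes that did not move together. Probe mMA034824 gave 0.22 and 0.030 in pair 1, 0.15 and 0.10 in pair 2, -0.19 and -0.46 in pair 3, and -0.28 and -0.31 in pair 4. It was thus above 0 on every array of pairs 1 and 2 and below 0 on every array of pairs 3 and 4. Probe mMC014903 gave 0.21 and 0.33 in pair 1, -0.18 and 0.001 in pair 2, -0.19 and 0.14 in pair 3, and 0.14 and 0.26 in pair 4. On that probe pairs 1 and 4 were high and the arrays of pairs 2 and 3 straddled or touched 0. The means were -0.09 ± 0.25 and 0.09 ± 0.17 (SD, n = 4 each), with limma adjusted p of 0.884 and 0.867. Without pair 1 they were -0.165 ± 0.25 and 0.028 ± 0.15 (SD, n = 3 each). Across the 8 arrays the probes correlated at r = -0.161, and at r = -0.664 on the 6 arrays without pair 1. The pairs where both probes had the same sign were pair 1, above 0, and pair 3, below 0. Both probes are annotated to the same RefSeq transcript, and the part of it each one matches was not analysed here.

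Gfap, the glial filament gene, stayed near 0 on both probes. Probe mMC012871 gave -0.13 and -0.074 in pair 1, -0.015 and 0.10 in pair 2, 0.16 and 0.12 in pair 3, and -0.12 and 0.10 in pair 4. Probe mMR030764 gave -0.031 and -0.046 in pair 1, 0.031 and -0.012 in pair 2, 0.030 and -0.056 in pair 3, and -0.032 and 0.13 in pair 4. The largest ratio in size on any array was 0.16, and each probe had pairs on both sides of 0. The means were 0.02 ± 0.10 and 0.0014 ± 0.036 (SD, n = 4 each), with limma adjusted p of 0.951 and 0.995. In pair 1, where S100b and Fabp7 were lowest, the Gfap pair means were -0.10 and -0.0385.

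**Figure D1:**
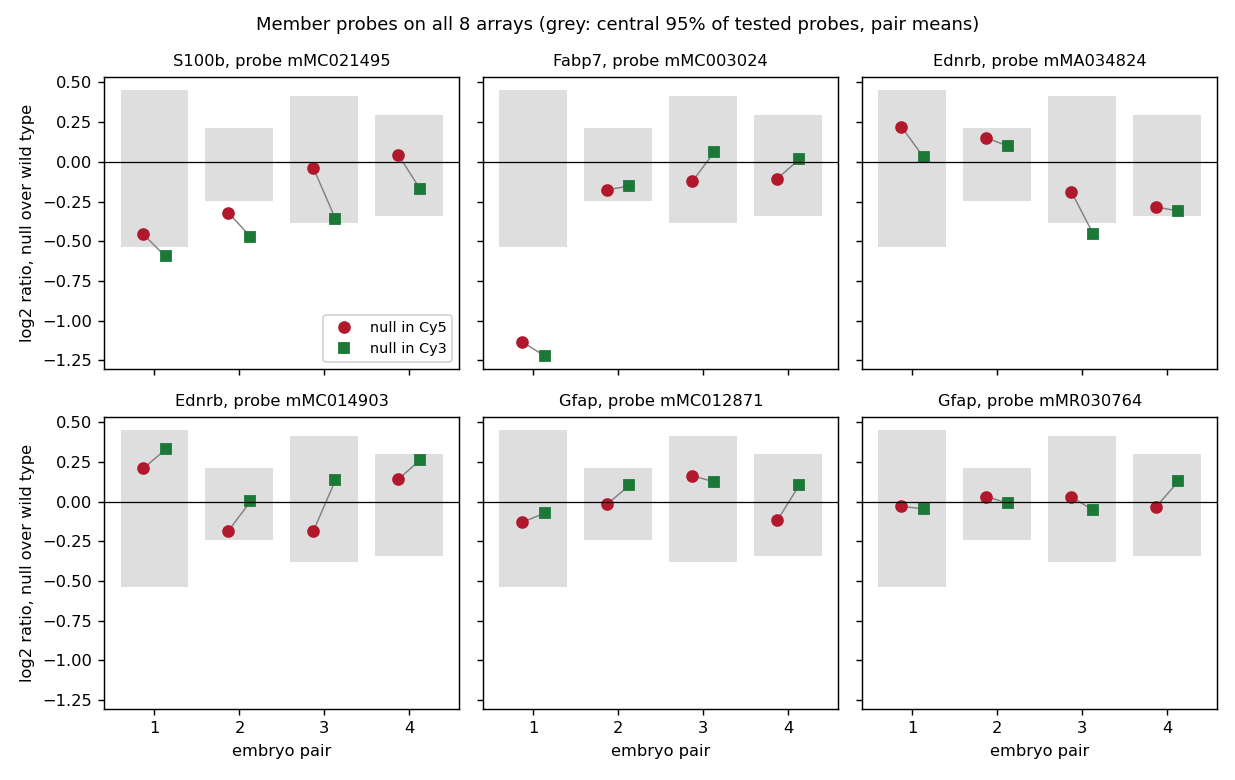
Log2 ratio of null over wild type (vertical axis) of the 6 member probes on each array, by embryo pair (horizontal axis), with the null sample in Cy5 as circles and in Cy3 as squares. Grey boxes span the central 95% of the pair means of all 36591 tested probes. Both Fabp7 arrays of pair 1 lie far below the box, while the Gfap probes lie inside it in every pair.

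Of the 6 member probes, 0 had a limma adjusted p under 0.05 for null against wild type, against 0% of all probes tested. At an unadjusted p under 0.05, 1 probe was lower, S100b, against 3.15% of all probes, and 0 were higher, against 2.33%. The ordinary test without moderation also called 0 of the 6, and there the unadjusted p of S100b was 0.0627. S100b and Fabp7 were below 0 in all 4 pairs, 2 of 6 probes, against 7.44% of all probes. As genes, 3 of the 4 members had a mean below 0, with a median of -0.15, against 50% and a median of 0.000042 over 15123 genes. Without pair 1 that median was -0.074. As probes, 3 of the 6 had a mean below 0, with a median of -0.0455, against 49.4% and a median of 0.000875 over all probes. The median of the 4 genes was -0.30, -0.074, -0.10 and -0.046 in pairs 1 to 4.

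**Figure D2:**
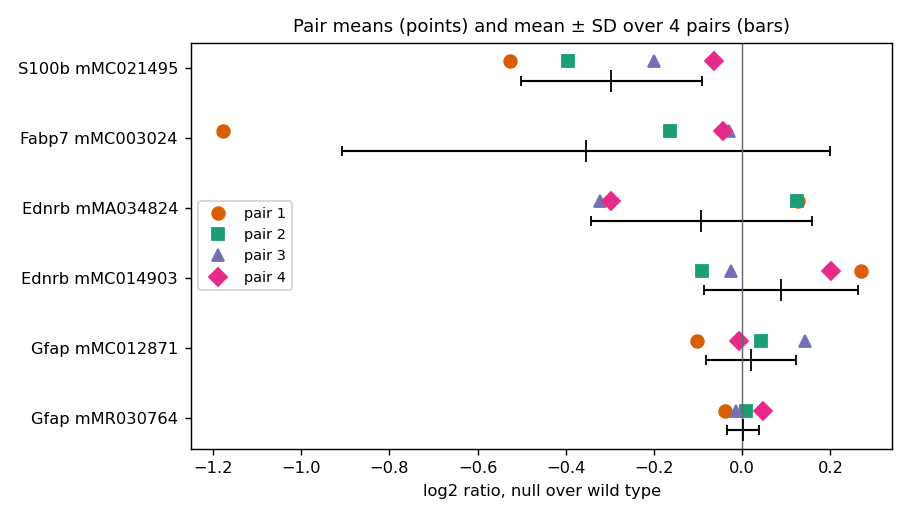
Log2 ratio of null over wild type (horizontal axis) of each member probe (vertical axis), with 1 point per embryo pair and a bar for mean ± SD over the 4 pairs. S100b has all pairs at or below -0.065, whereas the Ednrb probes have pairs on both sides of 0.

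The pairs differed from each other at 4 of the 6 member probes by more than the error between the arrays of a pair (limma moderated F-test on 8 arrays, adjusted p under 0.05), against 22.9% of all probes. That error is technical, so variation between embryos of 1 genotype is enough to pass this test. The adjusted p was 0.000694 for Fabp7, 0.0114 and 0.0314 for the Ednrb probes, and 0.0148 for S100b. The Gfap probes did not pass (adjusted p = 0.209 and 0.825). Without pair 1 none of the 6 passed (limma F-test), and over all 36591 probes 1564 passed, against 8384 with it. The adjusted p was then 0.445 for Fabp7, 0.0784 and 0.166 for Ednrb, and 0.128 for S100b. The unadjusted p of both Ednrb probes and of S100b was still under 0.05. Over the 8 arrays Fabp7 correlated with S100b at r = 0.633 and with Gfap probe mMC012871 at 0.664. Without pair 1 the values were -0.021 and 0.347 on 6 arrays. Correlations with Ednrb had other signs. Fabp7 with Ednrb probe mMA034824 gave -0.635, and -0.867 without pair 1. With Ednrb probe mMC014903 it gave -0.477, and 0.745 without pair 1. S100b with probe mMA034824 gave -0.566, and -0.417 without pair 1. Probes of the same arrays share hybridisation and dye, and these values are a description.

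Other glial genes are taken from a list of 26, of which 20 were measured. None passed over all genes in limma. At an unadjusted p under 0.05, 4 were lower, against 3.68% of all genes, and 1 was higher, against 2.64%. Below 0 in all 4 pairs were 5 of the 20, against 8.28% of all genes, and above 0 in all 4 was 1, against 7.31%. Slc1a3, a glutamate transporter of glia, gave -0.37, -0.12, -0.22 and -0.34 in pairs 1 to 4 and averaged -0.26 ± 0.11 (SD, n = 4; limma adjusted p = 0.701). It was below 0 on all 8 arrays. Gfra3, the artemin co-receptor, gave -0.18 ± 0.14, or -0.12 ± 0.03 without pair 1, and Dhh, a hedgehog ligand made by Schwann cells, -0.20 ± 0.15. Dhh was lowest in pair 3, at -0.39, where its arrays disagreed, at -0.026 and -0.75. Vim, an intermediate filament gene of glia that fibroblasts and other mesenchyme also use, stood at -0.25 ± 0.16 over 14 probes. Its sign followed the dye in pairs 1 to 3. There Vim gave 0.018, 0.075 and 0.080 with the null sample in Cy5, and -0.47, -0.33 and -0.38 in Cy3. In pair 4 both arrays were below 0, at -0.54 and -0.42. Aqp4, a water channel, was above 0 in every pair, at 0.26, 0.36, 0.17 and 0.074.

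The list of other glial genes had its low values in pair 1. In that pair 14 of 20 genes lay below 0, against 50.4% of all genes, with a median of -0.21. The medians were -0.033, 0.012 and 0.022 in pairs 2 to 4, while the median over all genes lay between -0.0045 and 0.002 in all 4 pairs. Gap43, a growth cone protein shared with neurons, was at -0.74 in pair 1 and Glul, the glutamine synthetase gene, at -0.57. Foxd3 and Sox2, transcription factors of crest cells and glia, were at -0.26 and -0.25 there and had means of -0.05 ± 0.15 and -0.06 ± 0.14 (SD, n = 4 each), or 0.02 and -0.0011 without pair 1. Over the 4 pairs 14 of the 20 genes had a mean below 0, against 50% of all genes, with a median of -0.055. Without pair 1 there were 12 of 20, against 49.8% of all genes, with a median of -0.0047. Apod, a lipocalin, had the largest mean of the list, -0.46 ± 0.99, which rested on 1 array of pair 4 at -4.10. The other array of that pair gave 0.22. Likewise Mia, a secreted protein of cartilage and pigment cells, gave -2.04 on 1 array of pair 3 and 0.028 on the other.

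**Figure D3:**
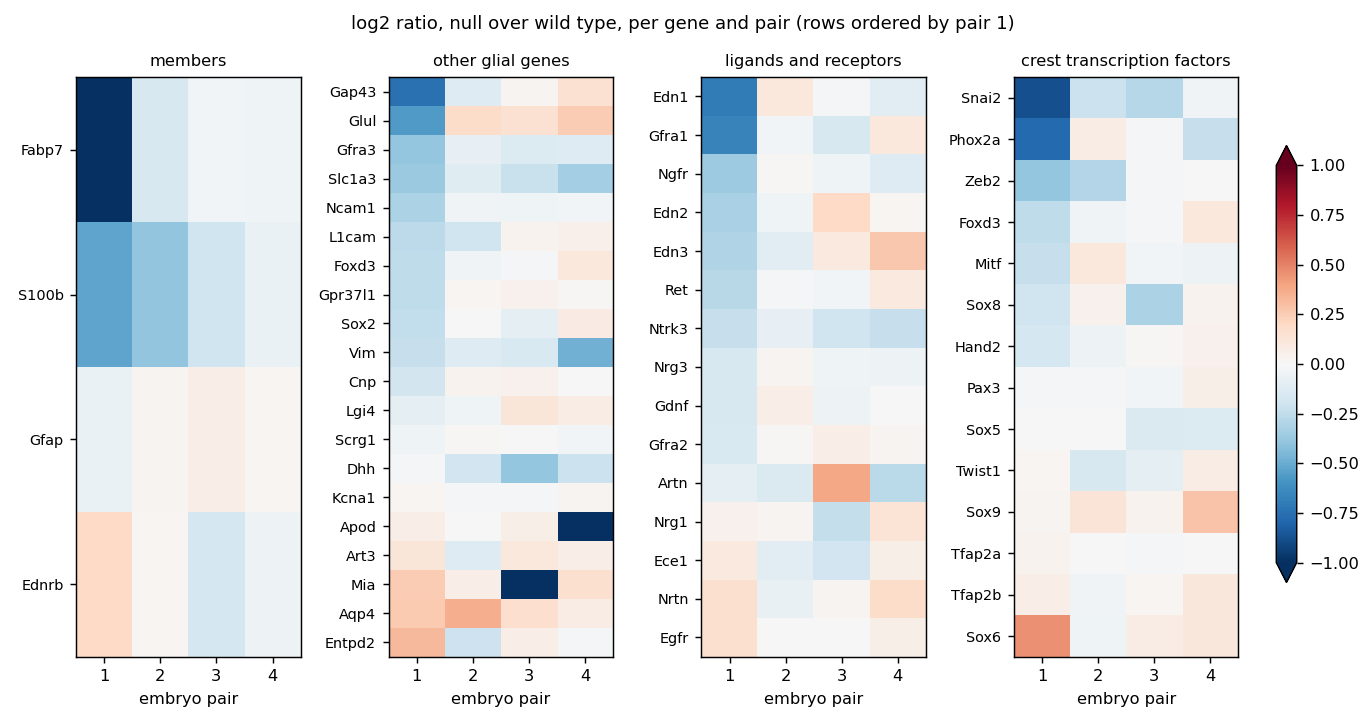
Log2 ratio of null over wild type (colour, limited at -1 and 1) of each measured gene (rows, ordered by pair 1) in each embryo pair (columns), for the members, other glial genes, ligands and receptors, and crest transcription factors. The pair 1 column holds most of the strongly blue cells, such as Fabp7 at -1.18 and Snai2 at -0.88. Apod in pair 4 and Mia in pair 3 rest on 1 array each.

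Signals and receptors of the enteric crest were measured for 15 of 20 listed genes. Edn3, the ligand of EDNRB, gave -0.30, -0.10, 0.094 and 0.27 in pairs 1 to 4 and averaged -0.01 ± 0.25 (SD, n = 4). Ece1, the enzyme that activates endothelins, gave -0.03 ± 0.14. The largest means were those of Gfra1, the GDNF co-receptor, at -0.19 ± 0.34, Ntrk3, the neurotrophin 3 receptor, at -0.19 ± 0.07, and Edn1, at -0.18 ± 0.36. Gfra1 and Edn1 were at -0.67 and -0.70 in pair 1, and without it their means were -0.03 ± 0.13 and -0.0048 ± 0.11 (SD, n = 3 each). Ntrk3 was below 0 in every pair and was the 1 gene of the list lower at an unadjusted p under 0.05 (limma adjusted p = 0.727). Over all genes, 8.28% were below 0 in all 4 pairs and 3.68% were lower at that unadjusted p. Ret, the GDNF receptor kinase, gave -0.28 in pair 1 and -0.016, -0.028 and 0.094 in the others. Its ligand Gdnf gave -0.04 ± 0.09 and Nrg1, the ligand of ERBB3, -0.0069 ± 0.16. A mean below 0 was found for 13 of 15 genes over the 4 pairs, against 50% of all genes. Without pair 1 it was found for 8 of 15, against 49.8%.

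Crest transcription factors were measured for 14 of 16 listed genes, and at an unadjusted p under 0.05 none was lower or higher (limma). The shares over all genes were 3.68% lower and 2.64% higher. Snai2, a regulator of crest cell delamination that fibroblasts also express, had the largest mean. It gave -0.88, -0.22, -0.29 and -0.036 in pairs 1 to 4 and averaged -0.36 ± 0.37 (SD, n = 4), or -0.18 ± 0.13 without pair 1 (n = 3). Phox2a, a factor of autonomic and enteric neurons, gave -0.78 in pair 1 and 0.074, -0.022 and -0.23 in the others. Zeb2, whose loss disturbs enteric crest development in mice, gave -0.39, -0.29, -0.022 and 0.001. The pair medians of the list were -0.097, -0.024, -0.022 and 0.040. A mean below 0 was found for 10 of 14 genes, against 50% of all genes, and for 7 of 14 without pair 1, against 49.8%.

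Enteric neuron genes, the sister lineage of the glia, had a pair 1 median of -0.40, with 23 of 27 genes below 0 there, against 50.4% of all genes. The medians of pairs 2 to 4 were 0.016, -0.028 and 0.022. The largest means of the list were Vip at -0.29 ± 0.28, Stmn2 at -0.28 ± 0.46 and Npy at -0.23 ± 0.44 (SD, n = 4 each). Stmn2, a microtubule regulator of neurons, was at -0.96 in pair 1, while the remaining pairs gave -0.18 to 0.049. Without pair 1 the means were -0.20 ± 0.28 for Vip, -0.06 ± 0.11 for Stmn2 and -0.02 ± 0.07 for Npy (SD, n = 3 each). Without pair 1 13 of 27 genes had a mean below 0, against 49.8% of all genes, with a median of 0.0056. The pairs differed at 20 of the 27 genes (limma F-test adjusted p under 0.05), against 30.9% of all genes.

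Marker lists of other cells differed in how far they moved between the pairs. Fibroblast genes, 10 of 10 with a mean below 0 against 50% of all genes, had medians of -0.49, -0.19, -0.14 and -0.47 in pairs 1 to 4. Endothelial genes had medians of -0.10, -0.21, -0.14 and -0.14, and smooth muscle and interstitial cell genes -0.053, 0.087, -0.15 and 0.070. Epithelial genes had medians of 0.061, 0.022, 0.048 and 0.050. Leukocyte genes stood at 0.27 in pair 1 and at 0.022 to 0.086 in the others. Erythroid, liver and pancreas genes stood at 1.60 in pair 3 and at -0.13 to 0.32 in the others. A mean below 0 was found for 10 of 10 endothelial genes and 7 of 14 smooth muscle and interstitial cell genes. It was found for 2 of 12 epithelial, 0 of 8 leukocyte and 0 of 17 erythroid, liver and pancreas genes. Without pair 1 these counts were 10, 5, 3, 1 and 0, and 10 for fibroblast genes, against 49.8% of all genes. Whether the defining markers of these cells were expressed cannot be given from ratios, and the part of these cells in the member ratios was not tested.

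**Figure D4:**
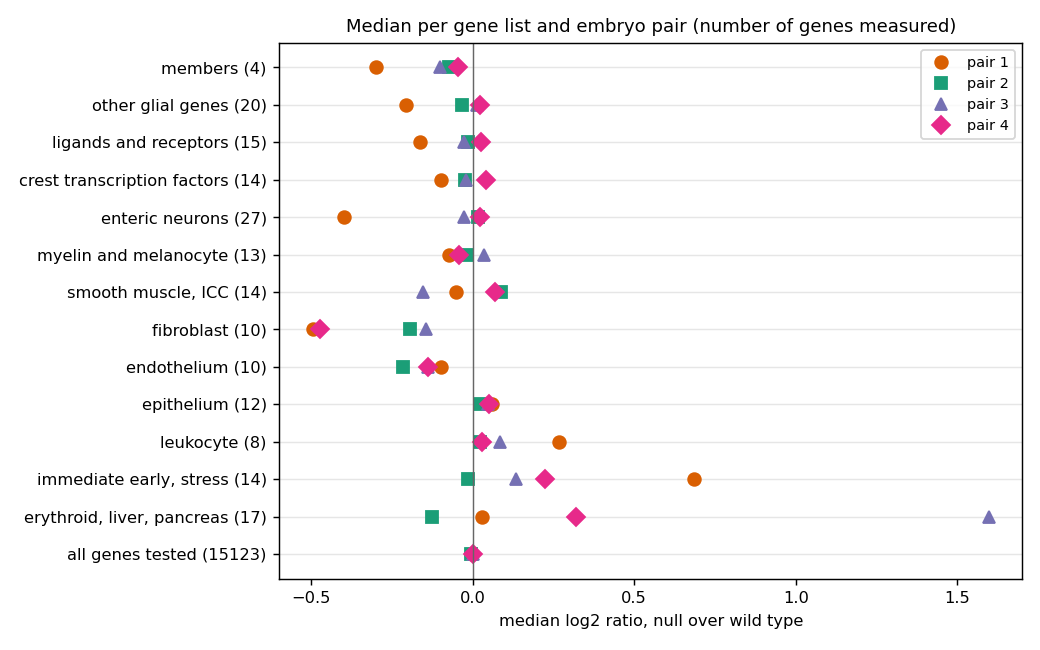
Median log2 ratio of null over wild type (horizontal axis) of each gene list (vertical axis, with the number of measured genes), 1 symbol per embryo pair. Members, other glial genes and enteric neurons have their lowest median in pair 1, where immediate early and stress genes have their highest, at 0.68. The lists of ligands and receptors, crest transcription factors, myelin and melanocyte genes and fibroblast genes also have their lowest median in pair 1.

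The genes most like the members over the 8 arrays were found by their correlation with the mean ratio of the 4 measured members, among 9752 genes with an SD of at least 0.1. They were Uchl1 (r = 0.992), Map1lc3a (0.988), Cxcl14 (0.987), Rprm (0.983), Tagln3 (0.981) and Cdh2 (0.980). The member mean itself was -0.39, -0.13, -0.08 and -0.034 in pairs 1 to 4. The correlation does not compare levels, and the member mean was below 0 in every pair. Map1lc3a, which encodes an autophagy protein, gave -0.12, 0.20, 0.25 and 0.31, so it was above 0 outside pair 1. Cxcl14, which encodes a chemokine, gave -0.50, -0.034, 0.012 and 0.064. Uchl1, a neuronal deubiquitinase, gave -0.45, -0.022, -0.008 and 0.086, and Cdh2, N-cadherin, -0.50, -0.047, 0.062 and 0.15. All 6 had their lowest pair value in pair 1, which follows from their selection, since the member mean was lowest there too. In pair 1 that mean drew most on Fabp7, at -1.18, with S100b at -0.53, Gfap at -0.070 and Ednrb at 0.20. Without pair 1, on 6 arrays, r ran from 0.731 for Tagln3 to 0.980 for Cdh2.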

How the data were processed

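The deposited values are 1 log ratio per probe and array, made by the authors and taken here as log2 ratios of null over wild type. Per the labels, amplified antisense RNA carrying aminoallyl groups was labelled with Cy5 or Cy3. How the authors corrected, normalized and filtered the values is not stated, and those steps could shrink or centre the ratios. Array medians lay between -0.002 and 0.002. The table holds 38467 probes, of which 1876 in 4 identifier classes without annotated genes were left out, and 36591 were tested.

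Replicates were pairs (n = 4), each the mean of its dye-swapped arrays. Their means were set against 0 by limma 3.58.1 under R 4.3.3 (lmFit, eBayes, 2-sided, Benjamini-Hochberg over all probes, threshold 0.05). Pairs were compared on 8 arrays with a dye term by the moderated F-test. Precision is limited by the small number of arrays, and pairs sharing parents are not fully independent. With 4 pairs the smallest p of an exact sign-flip test is 0.125. Genes are means of their probes. All 22941 annotated probes matched RefSeq by gene identifier.

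On simulated data, run on 36591 probes, the test of null against wild type recovered 95 of 100 probes changed by 1 and 100 of 100 changed by 2 (log2), with 9 unchanged probes called. The F-test recovered 93 and 99 of 100 with 1 pair changed by those sizes, with 24 unchanged probes called. The simulated errors were normal and independent between probes, and the probes changed by 1 and by 2 were planted together. The recovery rates therefore need not hold for the deposited data. There the test of null against wild type did not call Lgr5, at -1.59 ± 0.47 (limma adjusted p = 0.723).

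The members and gene lists were chosen with earlier results of these data known. Named are all member probes, Lgr5, the 3 genes with the largest mean of a list, genes of the glial, ligand and crest lists with 1 sign in all pairs at unadjusted p under 0.05, and the 6 genes most like the members. Of the lists of other cells, medians stand in place of most of these genes. Genes named beyond this, such as Ret, Gdnf, Nrg1, Edn3, Ece1, Gap43, Glul, Foxd3, Sox2 and Mia, were chosen for their known role or after their values were seen. Alternatives left out each pair, used 1 dye orientation, a random block, other scaling and centring, or other probe filters.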

Additional observations from a re-analysis of the deposited data

Results flagged for a closer look

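A pair is given here when the gap between it and the nearest pair, divided by the range of the 4 values, exceeded Dixon's 95% critical value for 4 values, which Cxcl14 at 0.826 narrowly missed. Chance does this for about 1 in 20 independent items. It was seen for 11 of 73 items, 10 of them in pair 1. That count cannot be read against the chance share, because the items share genes and arrays and include genes named for a large mean or for likeness to the member mean, both of which pair 1 can set. Fabp7 stood at -1.18 in pair 1, against -0.16 to -0.030 elsewhere. The median of the enteric neuron list stood at -0.40 in pair 1, against -0.028 to 0.022, and Npy, a neuropeptide gene of that list, at -0.88, against -0.0895 to 0.0345. Rprm and Tagln3, which resembled the members over the arrays, stood at -1.45 and -0.67 in pair 1, against -0.006 to 0.26 and 0.054 to 0.14.

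In the same pair Atf3, a stress response factor, stood at 1.70, against -0.085 to 0.15, and Kdr, an endothelial VEGF receptor, at -0.35, against -0.16 to -0.14. The Y-linked genes Eif2s3y and Kdm5d stood at -4.56 and -2.42, against -0.035 to 0.90 and -0.055 to 0.13. The sex-linked list had 3 measured genes, and its flagged median of -2.42 was the Kdm5d value. In pair 4, Apod stood at -1.94, against -0.0065 to 0.0665, and its 2 arrays there disagreed.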

How the results depend on the processing

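No member probe passed the threshold for null against wild type under any alternative run. S100b kept a mean below 0 throughout, from -0.40 with the null sample in Cy3 alone to -0.19 in Cy5 alone, and its lowest adjusted p was 0.211. Its limma unadjusted p was 0.0642 without pair 2 and ran from 0.0092 to 0.038 without any other 1 pair. It was 0.0864 with the null sample in Cy5 alone and 0.0027 in Cy3 alone. Fabp7 ran from -0.46 without pair 3 to -0.08 without pair 1. The Gfap means, near 0, changed sign in places. Probe mMC012871 gave -0.022 to 0.060 when 1 pair was left out, lowest without pair 3 and highest without pair 1. It gave -0.0255 from the Cy5-null arrays. Probe mMR030764 gave -0.014 without pair 4, -0.0013 without pair 2, up to 0.015 without pair 1, and -0.0005 from the Cy5-null arrays. Ednrb probe mMC014903 gave -0.0055 from those arrays. The cause was not tested.

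Over all probes 0 were called with the pair means as reported and without any 1 pair. A random block for pair on the 8 arrays gave 84 probes and 59 genes, and, with a dye term added, chosen after seeing the data, 12 probes and 11 genes. No member probe was among them, whereas Lgr5 was (limma adjusted p = 0.0047 and 0.0118). The block fits take all 8 arrays as observations, with 1 correlation within pairs for all probes (0.306, or 0.510 with the dye term). Dye-swapped arrays of the same embryos thus add degrees of freedom, so these calls do not rest on the 4 pairs alone. The number of probes at which pairs differed was 8384, was 5019 without the dye term, and ran from 1564 without pair 1 to 8928 without pair 3, with 5293 without pair 2. Without the dye term the differences between pairs at S100b (adjusted p = 0.151) and Ednrb probe mMC014903 (0.210) no longer passed. S100b also fell short without pair 4 (0.0663) and this Ednrb probe without pair 2 (0.123). Signal over background is unknown, so whether a ratio near 0 reflects a dim probe was not tested.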

Other observations

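Relatives of the members by protein family gave ratios of either sign. S100a6, a calcium-binding protein of several cell types, gave -1.68 in pair 1, 0.044 and 0.092 in pairs 2 and 3, and -0.40 in pair 4, a mean of -0.49 ± 0.83 (SD, n = 4), or -0.09 ± 0.27 without pair 1 (n = 3). S100a16 was below 0 in every pair, at -0.21 ± 0.20 (limma unadjusted p = 0.0485), or -0.14 ± 0.15 without pair 1. The enterocyte fatty acid-binding gene Fabp1 stood at 2.52 in pair 3 and at -0.11 to 0.69 in the others, and Fabp4, of fat and vessels, at 0.26 ± 0.34. None of these passed the threshold over all genes.

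Genes of other crest derivatives, Schwann cells and melanocytes, were measured for 13 of 17 listed. Of these, 9 had a mean below 0, against 50% of all genes, and 7 of 13 without pair 1, against 49.8%, with a median of -0.00067. Mbp, a myelin protein gene, gave -0.65, -0.13, 0.036 and -0.098 over pairs 1 to 4. Pmp22, a myelin protein gene also used by fibroblasts, was below 0 in all 4 pairs, at -0.22 ± 0.12 (SD, n = 4; limma adjusted p = 0.727). Oca2, a pigment cell gene, gave -0.82 in pair 3 and -0.084 to 0.15 in the others. The arrays of pair 3 disagreed, at -0.16 and -1.47. Kit, of interstitial cells of Cajal, mast cells and melanocytes, gave -0.84 in pair 1 and 0.31 in pair 4. Kit and S100a16 were chosen after their values were seen.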
